A study of Homo sapiens with 28 samples.

Results

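Tumours of the human renal cell carcinoma line 786-O that had grown on under sorafenib were compared with untreated tumours of the same arm. The members are the arrays whose treatment label names 786-O, sorafenib and either resistant or untreated, which gave 5 resistant and 5 untreated tumours, 10 of the 28 arrays of the series. All 10 tumours grew from 786-O cells placed under the skin of the flank of female athymic nude/beige mice of 6 to 8 weeks. The resistant tumours came from mice given sorafenib by gavage at 80 mg/kg on 6 of the 7 days of a week, starting once the tumour measured 12 mm across. Collection was at 12 mm or at the 20 mm limit, and at which of them the untreated tumours were taken is not given in the labels, so size and treatment cannot be told apart. Each xenograft is 1 cell line in a mouse without T cells. Whether every tumour had a mouse of its own is not given in the labels. The p-values therefore reflect only the spread among tumours within groups, estimated jointly over all 28 arrays of the series.

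Sorafenib is a kinase inhibitor that blocks VEGF and PDGF receptors on vessels and supporting cells and RAF kinases in tumour cells. 786-O cells lack a working VHL protein, so the transcription factor HIF-2alpha, encoded by EPAS1, is active without hypoxia. RAF kinases relay signals from growth factor receptors through MEK to ERK, and ERK induces genes that feed back on the pathway, among them phosphatases, Sprouty-related proteins and ETS factors. Clear cell renal carcinoma arises from the proximal tubule, whose epithelium reabsorbs solutes, burns fatty acids and conjugates drugs and bile pigments.

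Values are deposited signals of Affymetrix HG-U133 Plus 2.0 arrays, each gene being read by the brightest of its probe sets that names 1 gene. Of 19775 such genes 13808 passed a filter on dim signals. Differences are resistant minus untreated on the log2(signal + 16) scale with their standard error, a scale that shrinks the change of dim genes, and p-values are from limma with Benjamini-Hochberg adjustment over all genes tested. A gene called here had an adjusted p under 0.05. The 3-prime minus 5-prime difference of the ACTB control probe sets was 0.22 to 0.44 on 7 of the 10 arrays, and 0.54 on resistant tumour 5. It was 1.03 on untreated tumour 5 and 0.67 on resistant tumour 4, and counts without these 2 arrays are given where they matter. The titles of the 10 arrays carry the letters B to E. Untreated tumours 4 and 5 and resistant tumours 4 and 5 have the letter D or E, and the other 3 of each group B or C. What the letter stands for is not given in the sources used here.

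Markers of renal identity were checked first. PAX8, the transcription factor that marks renal epithelium, had a mean signal of 4214 ± 685 in untreated and 4730.0 ± 412 in resistant tumours (SD, n = 5 and 5), and the difference of 0.18 ± 0.10 did not pass the test. EPAS1 rose from 4067 to 4505 in untreated tumours to 7198 to 8667 in resistant ones (0.90 ± 0.11, adjusted p = 3.13e-06), and the groups did not overlap. The HIF-induced carbonic anhydrase CA12 (0.44 ± 0.10) and the keratin KRT18 (0.42 ± 0.12) also rose. PAX2, a second renal lineage factor, fell from 217 ± 37.4 to 118 ± 53.9 (-0.86 ± 0.29), and the cadherin of the renal tubule CDH6 from 18020.5 ± 2834 to 11172 ± 1078 (-0.68 ± 0.13). In all, 3 of the 17 identity markers rose and 2 fell. Of further genes that bear on kinase inhibitors, VEGFA, the HIF-induced vessel growth factor, rose (0.35 ± 0.10, adjusted p = 0.0176) and the receptor kinase AXL rose (0.56 ± 0.17, adjusted p = 0.0269), while MET did not pass (0.16 ± 0.10). The calls of PAX2, KRT18, VEGFA and AXL were lost when 1 of some tumours was left out, with highest adjusted p-values of 0.120, 0.0695, 0.0568 and 0.0684.

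Of the 13808 genes 825 rose (5.97%) and 1267 fell (9.18%). The counts of every list below are to be set beside these shares. The rises reached 1 on the log2 scale in 138 genes (0.999%) and the falls in 310 (2.25%). The 5 resistant values lay above all 5 untreated ones in 702 genes (5.08%) and below them in 1022 (7.4%), of which 563 (4.08%) and 831 (6.02%) were also called. At an unadjusted p under 0.05 with limma 1546 of the 13808 genes were higher and 2371 lower, 28.4% either way. Unadjusted counts of lists are to be set beside these. The median difference of all genes was -0.05. Centring each array on its median moved that median to 0.04 and the split of calls to 1195 rises and 732 falls, so that rises were 62.0% of the calls in place of 39.4%, and small changes take their side partly from the scaling. The medians of the chemokine, semaphorin, YAP, integrin, polyamine, HOX, G protein-coupled receptor, endothelial and skin lists described here turned from below to above 0 with that centring. With those 2 arrays of high ACTB difference left out, 511 genes rose and 722 fell. Within the letters B and C, 3 against 3, the counts were 260 and 371, and within D and E, 2 against 2, they were 546 and 785. With the letter as a block they were 830 and 1276. Fitting only the 10 arrays of the comparison gave 671 rises and 1004 falls.

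Among the genes bright in both groups, SCD, the desaturase that makes monounsaturated fatty acids, had the largest rise. Its signals were 634, 388, 312, 194 and 269 in the untreated tumours and 1904, 2556, 3247, 5022 and 4841 in the resistant ones, a difference of 3.24 ± 0.34 (adjusted p = 4.18e-07). The lowest resistant tumour was above the highest untreated one, and resistant tumours 4 and 5 were the highest. SLCO4A1, a transporter of organic anions and thyroid hormone, gave 1203, 1335, 1278, 1109 and 1144 in untreated and 10072, 9357, 10881, 9502 and 11036 in resistant tumours (3.05 ± 0.24, adjusted p = 6.52e-09). Both groups were narrow, and no resistant value came near an untreated one. NT5E, the surface enzyme CD73 that makes adenosine, went from 1687, 1686, 1392, 1579.5 and 1681 to 5999, 7816, 6715, 7182 and 7739 (2.13 ± 0.18, adjusted p = 1.95e-08). TCN1, a secreted carrier of vitamin B12, was at 2746, 2577, 2252, 2360.4 and 2111 in untreated and 9923, 9248, 10614, 9668 and 13841 in resistant tumours (2.13 ± 0.26, adjusted p = 3.02e-06). Neither NT5E nor TCN1 overlapped between the groups.

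Other bright genes rose with more scatter. ANGPTL4, a secreted inhibitor of lipoprotein lipase, rose from 1229, 1076, 629, 638 and 901 to 4269.9, 7509, 7370.2, 4852 and 4377 (2.65 ± 0.33). GJB2, the gap junction protein connexin 26, was at 5264, 1991, 2033, 1946 and 2129 in untreated and 11851, 9797, 12428, 14647 and 7143 in resistant tumours (2.14 ± 0.30). Untreated tumour 1 stood well above the other untreated ones for GJB2, but below all resistant ones. G0S2, an inhibitor of the lipase that opens lipid droplets, rose from 883, 583, 954, 631 and 788 to 3258, 2184, 2465, 3595 and 2627 (1.86 ± 0.21). TMEM158, a membrane protein induced by RAS signalling, rose from 251 ± 40.8 to 2176 ± 659.8 (3.00 ± 0.21, adjusted p = 2.01e-09).

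Some large rises started below the filter limit (signal 89.4), where the array reads poorly, so their size is uncertain. MMP1, the collagenase that cuts fibrillar collagen, went from 149, 85.3, 43.3, 41.6 and 139 in untreated to 611, 2438, 1109.6, 994 and 1665 in resistant tumours (3.67 ± 0.49). SCG5, a chaperone of prohormone convertases, went from 146, 50.9, 50.4, 34.7 and 61.7 to 556, 1546, 573, 1155 and 1141 (3.59 ± 0.45). It was 1 of 2 rises among 17 neuroendocrine genes, beside 2 falls (11.8% each way, against 5.97% and 9.18% of all genes). Neither MMP1 nor SCG5 overlapped between the groups. ARHGAP22 (3.06 ± 0.43), which turns off the GTPase RAC1, and MFSD2A (2.86 ± 0.37), a transporter of lysophospholipids, belong here too. TREM1, a receptor of myeloid cells, rose by 2.30 ± 0.68 (adjusted p = 0.0225), with resistant tumour 3 at 1552 and the other 4 between 162 and 442.

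**Figure D1:**
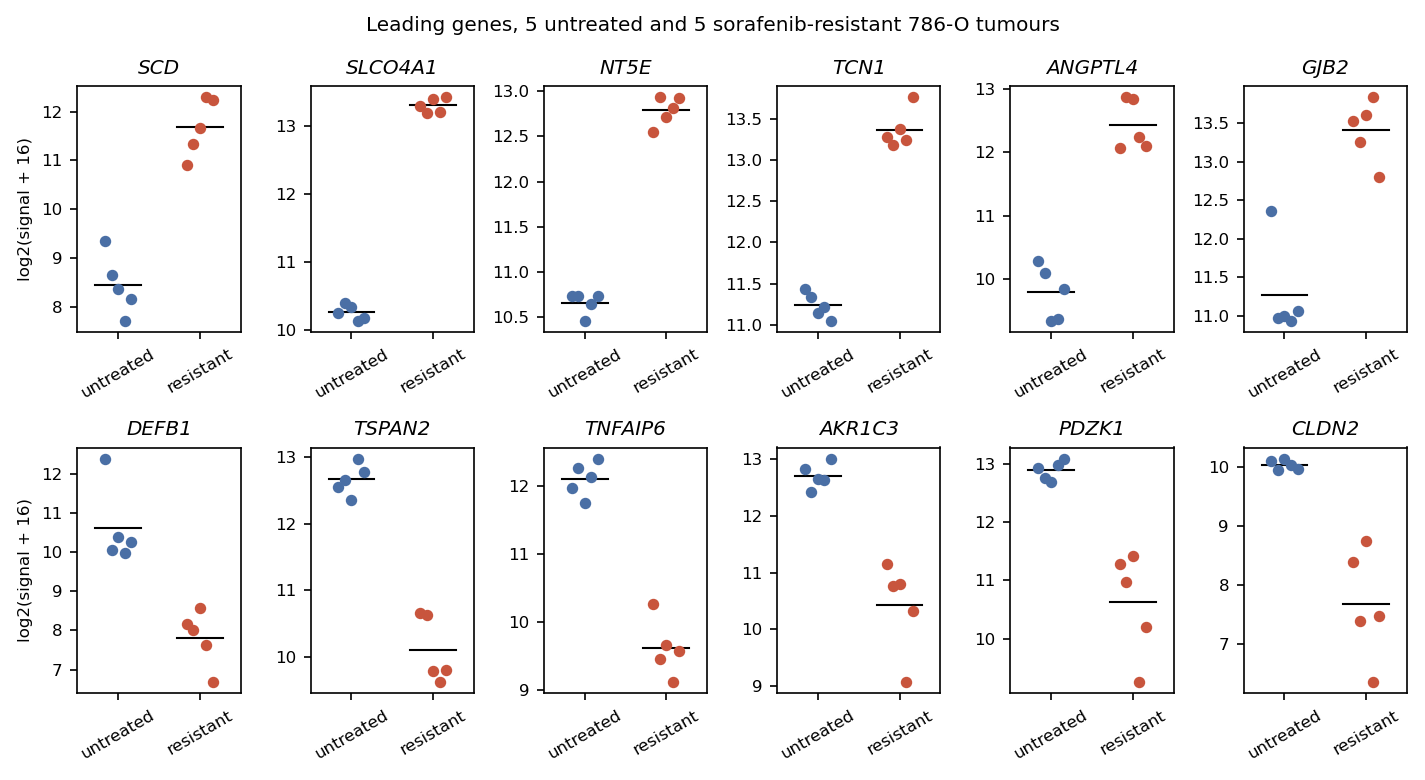
Signal of 12 genes in each of the 5 untreated and 5 resistant tumours on a log2(signal + 16) axis, with the group mean as a bar. In each panel all resistant points lie on 1 side of all untreated points, for SCD with means of 359 and 3514.

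The largest falls among genes bright in both groups were led by DEFB1, an antimicrobial peptide of tubule epithelium. Its signals were 5330.4, 1039.5, 1321, 989.8 and 1199 in untreated and 270.3, 240.3, 363, 181 and 86.4 in resistant tumours (-2.80 ± 0.54, adjusted p = 8.13e-04). Untreated tumour 1 stood far above the other untreated ones, all of which were still above every resistant tumour. TSPAN2, a tetraspanin, fell from 6003, 6465, 5239, 8048 and 7036 to 1590.2, 1567, 871, 769.8 and 879 (-2.57 ± 0.23, adjusted p = 5.72e-08). TNFAIP6, which links hyaluronan to inter-alpha-inhibitor, fell from 3978, 4879.7, 3419, 4482 and 5381 to 1214, 681, 792, 537 and 743 (-2.49 ± 0.18, adjusted p = 3.88e-09). The groups lay far apart for TSPAN2 and TNFAIP6. Their SDs among resistant tumours were 0.50 and 0.42 on the log2 scale, above the median of 0.22 over genes. ANK3, which anchors membrane proteins to the cytoskeleton, fell from 826 ± 271 to 134 ± 52.6 (-2.48 ± 0.26). THBS4, a matricellular thrombospondin, fell from 1429.7 ± 390.2 to 299.7 ± 96.4 (-2.21 ± 0.39). RERG, a RAS-related growth inhibitor, fell from 848 ± 138 to 200.2 ± 148 (-2.24 ± 0.31), with resistant tumours spread from 67.3 to 432.

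Below the limit in the resistant group were the falls of ACSM2A, UGT2B4, ZIC1, LRRC31, ALDH8A1, LEFTY1, CALCRL, MMP24, EFHB, SLC44A4, GFRA1, CCN4 and H2AC5P, whose size is therefore uncertain. CALCRL, the receptor part for adrenomedullin and CGRP, was at 565, 324, 393, 372 and 437 in untreated tumours against 56.5, 50.4, 58.3, 31.6 and 91.0 (-2.59 ± 0.21, adjusted p = 1.52e-08). Its ligand ADM rose (0.66 ± 0.11). ZIC1, a neural transcription factor, was at 588, 440.0, 504, 56.4 and 87.9 in untreated and 5.67, 36.3, 4.12, 44.6 and 12.8 in resistant tumours (-2.95 ± 0.74, adjusted p = 0.00765). Untreated tumours 4 and 5, both with the title letter D, were close to the resistant ones for ZIC1.

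None of the 6 sorafenib target kinases tested passed the threshold with limma (median -0.11), and 0 had an unadjusted p under 0.05, namely RET, FGFR1, DDR2, PDGFRA, ARAF and FLT1. KDR, FLT4, PDGFRB, KIT and FLT3 lay below the filter. None of 16 genes of the RAS, RAF, MEK and ERK cascade passed either, and their median was 0.02. Of these, 2 were higher and 1 was lower at an unadjusted p under 0.05 with limma. The kinase MAP2K1 had a mean of 1503 in untreated and 1682 in resistant tumours (0.16 ± 0.07), and MAPK3, or ERK1, -0.17 ± 0.16. NRAS and RASA1 were not analysed here. A difference that missed the threshold does not show that these genes were equal in both groups.

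Genes that ERK induces were the list with the highest median of those examined. Of 23 tested 15 rose and 1 fell, beside 5.97% and 9.18% of all genes, and their median was 0.82. DUSP5, a phosphatase that removes phosphate from ERK in the nucleus, was at 215, 152, 241, 248 and 266 in untreated and 717, 1104, 823, 909 and 1128 in resistant tumours (1.99 ± 0.20, adjusted p = 3.75e-07). DUSP6, its cytoplasmic counterpart, went from 527, 345, 472, 494 and 639.7 to 1023, 1083, 1259, 1343 and 1624 (1.33 ± 0.16, adjusted p = 3.48e-06). FOSL1, an AP-1 subunit that ERK stabilises, went from 277, 241, 211, 203 and 187 to 941, 1104, 868, 801 and 823 (1.95 ± 0.20, adjusted p = 3.75e-07). The groups were apart for all of them. Of the PEA3 family of ETS factors ETV5 rose from 359, 356, 296, 437 and 397 to 1097, 1067, 821, 1025 and 1108 (1.44 ± 0.15, adjusted p = 3.75e-07) and ETV1 from a mean of 90.1 to 286 (1.45 ± 0.30). ETV4 stayed dim in both groups, at 12.6 to 75.9 and 10.1 to 46.7 (-0.10 ± 0.37).

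PHLDA1 (1.90 ± 0.20), the receptor kinase EPHA2 (1.24 ± 0.15) and the cyclin CCND1 (0.99 ± 0.12) rose as well. So did the RAF and ERK inhibitors SPRED1 (0.71 ± 0.15), SPRED2 (0.82 ± 0.13), SPRED3 (0.82 ± 0.22) and SPRY2 (0.76 ± 0.20), the EGFR inhibitor ERRFI1 (0.85 ± 0.11) and the sphingosine kinase SPHK1 (0.84 ± 0.21). SPRY4 (0.43 ± 0.22), SPRY1 (-0.16 ± 0.20) and EGR1 (0.38 ± 0.29) did not pass. MYC rose by 0.57 ± 0.18 (adjusted p = 0.0367), from 848 to 1580.4 in untreated to 1665 to 1996 in resistant tumours. Its call was lost without 7 of the 10 tumours in turn, with a highest adjusted p of 0.115. EPHA4, counted in the list as an ERK target, fell from 682 ± 104 to 227 ± 68.3 (-1.57 ± 0.20). When the 2 arrays of high ACTB difference were left out, 14 of the list rose and 1 fell, and within the letters B and C and within D and E 10 rose and 1 fell in each.

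**Figure D2:**
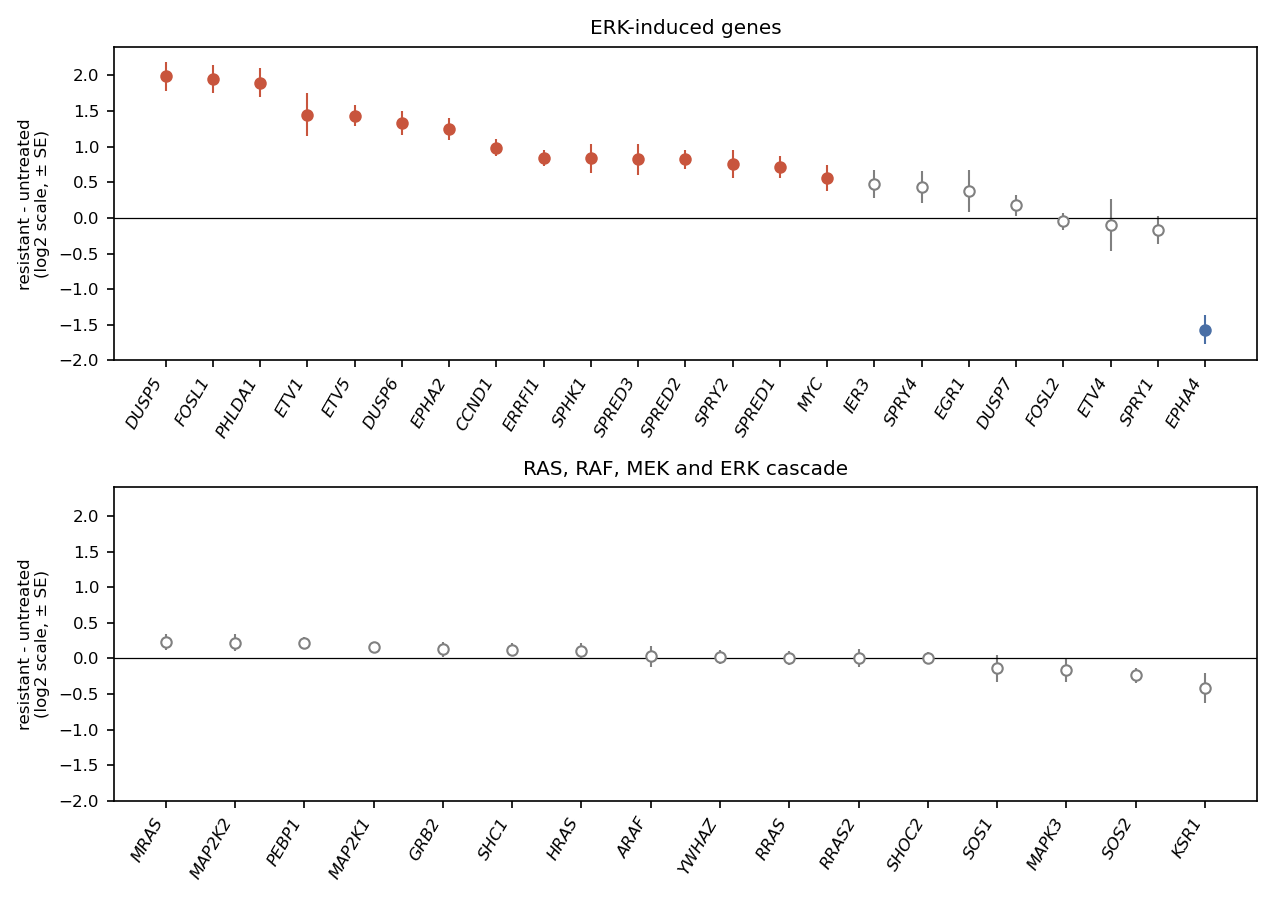
Resistant minus untreated difference on the log2 scale, with its standard error, of the 23 ERK-induced genes tested (upper panel) and of the 16 cascade genes tested (lower panel); filled points were called. The ERK-induced genes reach 1.99 for DUSP5, and no cascade gene was called.

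Of 30 stress-induced transcription factors 10 rose, 0 fell and the median was 0.29. With limma 1 was lower at an unadjusted p under 0.05. MAFF, a small MAF protein, rose from 528, 251, 326, 251 and 358 to 1567, 1851, 1668, 2651 and 2037 (2.49 ± 0.26, adjusted p = 3.75e-07), without overlap. ELK3, an ETS factor (1.03 ± 0.13), RUNX2, a regulator of bone genes (0.89 ± 0.12), and BHLHE40, a hypoxia-induced repressor (0.84 ± 0.16), rose in all 5 resistant tumours above the untreated range. For RUNX2 the probe sets disagreed, since the mean of all its probe sets gave -0.12 in place of the rise. KLF6, ETS2, MAFG, CEBPB, CEBPG and ETS1 rose by 0.42 to 0.77. By contrast KLF4, KLF5 and KLF10 did not pass, with differences of -0.09 to 0.20. HMGA1 and HMGA2 are architectural chromatin proteins that bind AT-rich DNA and are usually silent in adult tissue. They were 2 of 3 rises among 37 HMG and chromatin genes, and 4 genes of the list fell. These counts were 8.11% and 10.8% of the list, against 5.97% and 9.18% of all genes. HMGA2 went from 199.5, 330.0, 306, 329 and 511 to 716, 1010.0, 936, 718 and 1325 (1.47 ± 0.21, adjusted p = 2.82e-05), and HMGA1, dim in untreated tumours, from 30.7, 39.3, 72.1, 70.1 and 15.2 to 129, 475, 281, 444 and 517 (2.61 ± 0.34). The third was the deacetylase HDAC9 (0.94 ± 0.25), while the DNA methyltransferase DNMT3A (-0.49 ± 0.16) fell. With median centring the chromatin list gave 6 rises and 0 falls.

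Promoters were searched for 3 words, because the AP-1 subunit FOSL1 stood among the rises and tubule genes, which HNF1 factors drive, among the falls. The window was 250 bases before to 50 after each RefSeq start (GRCh38.p14), and the motifs, read on both strands, were TGANTCA for AP-1, TGACGTCA for the cyclic AMP response element (CRE) and the HNF1 motif. An AP-1 word was present in 78 of 670 rises (11.6%), 88 of 1017 falls (8.65%) and 825 of 11112 genes tested (7.42%) that have a promoter in the table. Counted per start, the shares were 8.06%, 5.97% and 5.58%. Among rises of at least 1 it was present in 16 of 104 (15.4%) and among falls of at least 1 in 21 of 227 (9.25%). The CRE word was in 23 of 670 rises (3.43%), 27 of 1017 falls (2.65%) and 395 of 11112 genes tested (3.55%), so over all calls its share among rises was not above that of genes tested. Among rises of at least 1 it was in 7 of 104 (6.73%) and among falls of at least 1 in 3 of 227 (1.32%). Counted per start, the CRE shares were 2.44% in rises, 1.99% in falls and 2.61% in genes tested. The HNF1 word was in 0 of 670 rises, 1 of 1017 falls (0.0983%) and 3 of 11112 genes tested (0.027%). That 1 fall was LRRC31. Among all 35116 promoters given, 7.71% hold the AP-1 word, 1.85% the CRE and 0.0285% the HNF1 word. These are descriptions of words in a window, with no test. Shown are the promoters of 3 leading rises and 2 leading falls that hold a word, in capitals, 5′ to 3′ on the gene's strand. MAFF (chr22:38201744-38202043, plus strand) has a CRE at -54 relative to the start, ARG2 (chr14:67619670-67619969, plus strand) has CREs at -172 and -64, and DHRS3 (chr1:12596564-12596863, minus strand) has an AP-1 word at -85. SLC17A3 (chr6:25874194-25874493, minus strand) has an AP-1 word at -81 and LRRC31 (chr3:169869886-169870185, minus strand) the HNF1 word of the opposite strand at -63.
MAFF: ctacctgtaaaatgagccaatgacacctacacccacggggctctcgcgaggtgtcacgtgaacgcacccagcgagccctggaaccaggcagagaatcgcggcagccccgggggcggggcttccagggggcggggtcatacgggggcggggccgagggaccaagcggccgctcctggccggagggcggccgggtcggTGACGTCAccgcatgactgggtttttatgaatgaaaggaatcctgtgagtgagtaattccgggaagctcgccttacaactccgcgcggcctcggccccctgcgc
ARG2: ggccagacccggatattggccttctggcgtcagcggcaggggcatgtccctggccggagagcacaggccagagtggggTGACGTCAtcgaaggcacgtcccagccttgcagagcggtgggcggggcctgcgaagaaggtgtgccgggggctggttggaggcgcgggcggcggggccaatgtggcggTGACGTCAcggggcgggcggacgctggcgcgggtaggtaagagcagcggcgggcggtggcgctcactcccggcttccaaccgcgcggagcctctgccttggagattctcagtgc
DHRS3: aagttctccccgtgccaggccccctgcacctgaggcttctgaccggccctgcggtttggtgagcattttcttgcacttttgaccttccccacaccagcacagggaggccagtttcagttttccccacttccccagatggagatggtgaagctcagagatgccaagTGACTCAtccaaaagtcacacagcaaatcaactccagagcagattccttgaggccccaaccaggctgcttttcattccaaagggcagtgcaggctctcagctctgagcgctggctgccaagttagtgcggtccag
SLC17A3: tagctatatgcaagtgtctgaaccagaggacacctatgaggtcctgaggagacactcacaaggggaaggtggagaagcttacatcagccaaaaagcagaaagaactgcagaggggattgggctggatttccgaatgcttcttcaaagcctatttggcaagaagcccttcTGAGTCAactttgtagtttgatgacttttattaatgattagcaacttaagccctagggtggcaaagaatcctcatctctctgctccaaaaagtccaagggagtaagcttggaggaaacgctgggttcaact
LRRC31: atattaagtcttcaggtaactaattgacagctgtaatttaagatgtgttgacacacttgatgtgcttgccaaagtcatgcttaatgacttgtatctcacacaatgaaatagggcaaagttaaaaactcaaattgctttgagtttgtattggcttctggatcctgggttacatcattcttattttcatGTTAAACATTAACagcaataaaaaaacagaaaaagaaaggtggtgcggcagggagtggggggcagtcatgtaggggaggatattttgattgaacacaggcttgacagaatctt

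Genes of secreted ligands and their receptors were read next. Of 11 genes of the EGF family and its receptors 4 rose and 1 fell. HBEGF went from 61.1, 122, 40.4, 55.2 and 26.3 to 164, 241, 229, 194 and 183 (1.61 ± 0.35), apart but dim in untreated tumours. TGFA, which was bright, went from 8144, 8871, 5395, 9411 and 11382 to 16394, 13346, 14090.5, 15032 and 13442 (0.78 ± 0.14, adjusted p = 4.18e-04), without overlap. EREG rose by 1.13 ± 0.31 with overlap, since resistant tumour 2 (292) lay inside the untreated range. The 1 other probe set of EREG tested went the other way, and the call was lost with the mean of probe sets. ADAM17, the protease that frees these ligands, rose by 0.30 ± 0.08. Their receptor EGFR did not pass, with 6353 ± 1695 in untreated and 7368 ± 1310.2 in resistant tumours, and the ERBB4 ligand NRG1 fell (-0.85 ± 0.14). Leaving out the 2 arrays of high ACTB difference, 2 members of the family rose.

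Of 13 IL-6 family genes 3 rose and 3 fell. IL6 itself went from 489.9, 299, 355, 474 and 508 to 834, 975, 774, 1326 and 1054 (1.20 ± 0.27, adjusted p = 0.00343), the feedback inhibitor SOCS3 rose (1.42 ± 0.27) and so did the oncostatin receptor OSMR (0.68 ± 0.10). Of 2 other probe sets of SOCS3 tested only 1 went the same way, and its call was lost with the mean of probe sets. With median centring 5 of the list rose and 1 fell. SOCS2, an inhibitor in growth hormone signalling, fell from 765 ± 177 to 313 ± 88.9 (-1.27 ± 0.24). Of 14 chemokines 0 rose, also at an unadjusted p under 0.05 with limma, and 4 fell. CCL2, which attracts monocytes, went from 640.1, 1066, 1067, 1325 and 1349 to 444, 429, 211, 459.9 and 504 (-1.39 ± 0.29, adjusted p = 0.00146), and CX3CL1, which is anchored to the membrane, from 328 ± 23.1 to 146 ± 15.5 (-1.09 ± 0.16). CXCL5 (-1.04 ± 0.33) and CCL28 (-0.47 ± 0.13) were the others, both with overlap.

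Of 16 TGF-beta superfamily ligands and inhibitors INHBA, the activin A subunit, rose from 301, 436, 236, 287 and 303 to 751, 764, 599.7, 893 and 1106 (1.35 ± 0.22). LEFTY1, an inhibitor of Nodal, fell (-2.79 ± 0.43), and TGFB2 went from 866, 714, 730.1, 708 and 831 to 277, 532, 356, 253 and 248 (-1.22 ± 0.28), while TGFB1 did not pass (-0.12 ± 0.17). Of 16 genes of the IGF and insulin list 4 rose and 3 fell, and with median centring none fell. The calcium-regulating hormone STC1 went from 3209, 2444, 2921, 2429.9 and 2101 to 7165, 6703, 7294, 7948 and 6355 (1.44 ± 0.15), and IGFBP6 (0.92 ± 0.18) and the receptor adaptors IRS1 (0.91 ± 0.15) and IRS2 (0.61 ± 0.15) rose. IGF1 (-0.93 ± 0.31) and its receptor IGF1R (-0.46 ± 0.15) fell. Their calls were lost without 7 and 8 of the tumours in turn (highest adjusted p = 0.107 and 0.105).

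Axon guidance genes moved in both directions. Of 24 semaphorins, plexins and neuropilins 4 rose and 6 fell. Both neuropilins, which are receptors of class 3 semaphorins and of VEGF, rose, NRP2 from 781, 621, 683, 562 and 671 to 1365, 1911, 1147, 2002 and 1939.9 (1.29 ± 0.15) and NRP1 from a mean of 2188 to 4271 (0.97 ± 0.16). The secreted class 3 ligands SEMA3A, from 1420.1, 2264, 2092, 1881 and 1797 to 425, 709.5, 531, 369 and 781 (-1.76 ± 0.23), and SEMA3F, from 896 ± 107 to 341 ± 55.5 (-1.36 ± 0.15), fell, while SEMA3C did not pass (0.24 ± 0.15). The class 4 members SEMA4B (1.04 ± 0.12) and SEMA4C (0.49 ± 0.13) rose. SEMA5A, SEMA5B and SEMA6A and the receptor PLXND1 fell, with differences of -0.97 to -0.52. Without the 2 arrays of high ACTB difference 4 rose and 6 fell. In the ephrin family EPHA2 rose, and EPHA4 and the ligand EFNB2 (-0.64 ± 0.12) fell, of 14 genes (7.14% and 14.3%).

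Of 21 Notch pathway genes 2 rose and 5 fell. The ligand JAG1 went from 5718, 5386, 5832, 7059 and 6510.1 to 3405, 3590.3, 2900.0, 3235 and 2657 (-0.95 ± 0.19, adjusted p = 0.00105), and the glycosyltransferase MFNG (-1.27 ± 0.21) and the Notch targets NRARP (-1.17 ± 0.29) and HES4 (-0.80 ± 0.14) fell with it. NOTCH2 (0.50 ± 0.09) and the DNA-binding partner RBPJ (0.35 ± 0.10) rose, and the targets HES1 (0.11 ± 0.24) and HEY1 (-0.39 ± 0.17) did not pass. Of 25 Wnt genes 0 rose, with 2 higher at an unadjusted p under 0.05 with limma. The 2 falls, 8% of the list against 9.18% of all genes, were the receptors FZD1 (-0.50 ± 0.13) and FZD2 (-0.72 ± 0.17). With those 2 arrays of high ACTB difference left out, 1 Wnt gene fell. Targets and partners of YAP gave 4 rises and 5 falls in 21, and 1 and 3 without the 2 arrays. NT5E and CCN2 (1.14 ± 0.36) rose while AJUBA, a LIM protein that restrains LATS kinases, went from 4057, 4469, 4981, 5119.6 and 5508 to 1929, 2501, 2069, 1774 and 2212 (-1.20 ± 0.14, adjusted p = 1.74e-06). The call of CCN2 was lost without 7 of the tumours in turn (highest adjusted p = 0.0955).

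At the cell surface 4 of 15 integrin chains rose and 0 fell, also at an unadjusted p under 0.05 with limma. ITGA3, the laminin receptor chain, went from 1919, 1463, 1715, 1496 and 1178 to 2653, 3667, 3262, 4020.2 and 3099 (1.10 ± 0.16), ITGA2 (1.07 ± 0.16), a chain of the collagen receptor, and ITGB5 (1.06 ± 0.14) rose without overlap, and ITGA5 rose by 0.53 ± 0.15 with overlap. The common partner ITGB1 did not pass, with means of 26460.1 and 25272 (-0.05 ± 0.14). When the 2 arrays of high ACTB difference were left out, 4 rose. Among 18 proteoglycan and hyaluronan genes the hyaluronan receptor CD44 went from 8368, 8488, 6651, 7748 and 9037 to 13269.5, 12902, 13069, 15599 and 14305 (0.78 ± 0.10, adjusted p = 4.75e-06) and SDC4 rose (0.69 ± 0.11). The syndecan SDC2 moved the other way, from 2607, 3146, 3049, 3625 and 3666 to 982, 1191, 1072, 934 and 870.1 (-1.65 ± 0.13, adjusted p = 6.52e-09), and VCAN fell (-0.51 ± 0.16). Of 17 basement membrane genes 3 rose and 3 fell. NID2 (1.12 ± 0.27) and LAMB3 (0.71 ± 0.19) rose with overlap, and the collagen IV chain COL4A1 fell from 3787 ± 610.2 to 1654 ± 397 (-1.20 ± 0.20). Without the 2 arrays 0 of this list rose and 1 fell, and with median centring 5 rose and 1 fell.

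Among 21 tight junction and polarity genes 1 rose (4.76%), 3 fell (14.3%) and the median was -0.31. CLDN2, the claudin that makes proximal tubule junctions permeable to sodium, went from 1077, 966, 1110.5, 1029.8 and 983 to 319, 151, 409, 65.4 and 162 (-2.37 ± 0.30, adjusted p = 4.83e-06), with resistant tumour 4 the lowest. PATJ (-0.69 ± 0.13) and CLDN10 (-0.57 ± 0.19) fell and CLDN12 rose (0.45 ± 0.12). Ion channels, pumps and gap junctions gave 8 rises and 4 falls in 31, and 5 and 1 without the 2 arrays. GJB2, KCNK1 (1.28 ± 0.40) and KCNK3 (1.02 ± 0.23), leak potassium channels, were among the rises. The call of KCNK1 was lost without 7 of the tumours in turn (highest adjusted p = 0.0821). FXYD2, the regulatory subunit of the renal sodium pump, went from 8688, 8331, 10646, 9915 and 10702 to 6859, 4001, 6799, 1897 and 4365 (-1.14 ± 0.35, adjusted p = 0.0277), again with resistant tumour 4 the lowest, and its call was lost without 5 of the tumours in turn (highest adjusted p = 0.104). Of 37 G protein-coupled receptor and RGS genes 6 rose and 5 fell, led by the bradykinin receptor BDKRB2 (1.71 ± 0.33) and by CALCRL. ADGRG6 fell from 1858 ± 168 to 848 ± 95.8 (-1.12 ± 0.15).

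Many falls were in lists of metabolism. Of 32 genes of fatty acid oxidation and peroxisomes 18 fell and 2 rose, with a median of -0.35. They included steps of entry, oxidation and electron transfer. CPT1A, the carnitine transferase that admits fatty acids to mitochondria, went from 595, 1021, 779.6, 803 and 921 to 374, 361, 444, 434 and 282 (-1.08 ± 0.15, adjusted p = 1.84e-05), and the carrier SLC25A20 fell (-0.55 ± 0.12). The dehydrogenases ACADVL (-0.48 ± 0.10) and ACADSB (-0.68 ± 0.16), the trifunctional protein chain HADHB (-0.64 ± 0.11) and the thiolase ACAA2 (-0.75 ± 0.17) fell. ETFDH, which passes their electrons to the respiratory chain, went from 798, 830.1, 886, 704 and 882 to 506, 469, 501, 348 and 444 (-0.84 ± 0.12, adjusted p = 3.69e-05), and its partners ETFA (-0.35 ± 0.07) and ETFB (-0.50 ± 0.11) fell too. In peroxisomes EHHADH (-0.84 ± 0.17) and catalase, CAT (-0.80 ± 0.13), fell. PPARGC1A, a coactivator of these genes, fell from 137 ± 28.4 to 46.4 ± 13.2 (-1.31 ± 0.26). The rises were PPARA (0.34 ± 0.12) and ACOX2 (0.93 ± 0.29), the latter dim. Most of the falls were under 1 on the log2 scale. With median centring 13 genes fell and 2 rose, and without the 2 arrays of high ACTB difference 15 fell and 1 rose. Within the letters B and C 6 fell and within D and E 14.

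Enzymes that conjugate drugs and bilirubin fell in 15 of 26 genes and rose in 1, with a median of -0.39. UGT2B4, a glucuronosyltransferase, went from 998, 884, 948, 1452 and 838 to 104, 87.0, 121, 13.03 and 152 (-3.41 ± 0.35, adjusted p = 3.75e-07). UGT2A3 (-1.80 ± 0.50), UGT3A1 (-2.09 ± 0.34) and UGT2B28 (-1.94 ± 0.30) fell as well, the last also dim in resistant tumours. UGDH, which makes the glucuronic acid donor for glucuronidation, fell (-0.68 ± 0.11), and so did the microsomal transferase MGST1 (-0.69 ± 0.13). GSTO1, an omega class glutathione transferase, rose (0.39 ± 0.10). Members of the UGT2B, GST, AKR1C and ACSM2 families are near copies of each other and share probe sequence, so values of single members are uncertain. Of 20 cytochrome P450 genes 0 rose, also at an unadjusted p under 0.05 with limma, and 3 fell, CYP1B1 from 3619, 2970.1, 3023, 2937 and 2895 to 1386, 1413, 1632, 454 and 1001 (-1.50 ± 0.24), CYP3A5 (-1.42 ± 0.25) and CYP2U1 (-0.80 ± 0.26). With median centring 10 conjugating enzymes fell, and without the 2 arrays 9.

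Proximal tubule enzymes fell in 14 of 42 genes and rose in 0 (median -0.48), with 19 lower and 0 higher at an unadjusted p under 0.05 with limma, and tubule solute carriers fell in 9 of 29 and rose in 1 (median -0.24). PDZK1, the scaffold that holds transporters in the brush border, went from 7765, 6912, 6592, 8033 and 8697 to 2464, 1997, 2708, 594 and 1157 (-2.27 ± 0.30, adjusted p = 7.73e-06). GATM, which makes the creatine precursor, fell from 633 ± 156 to 168 ± 35.6 (-1.81 ± 0.21). Among carriers SLC17A3 went from 673, 779.7, 789, 863 and 614 to 237, 94.4, 231, 18.6 and 116 (-2.59 ± 0.43), SLC17A1 of the same family fell (-1.88 ± 0.26), and SLC3A1, the cystine transporter subunit, fell from 1000.4 ± 382 to 263 ± 92.7 (-1.84 ± 0.24). AQP1, the water channel of the proximal tubule, had means of 4913 and 2138 and did not pass (-1.23 ± 0.43). The peptidases MME (0.31 ± 0.16) and ENPEP (-0.23 ± 0.13), which are tubule surface enzymes, did not pass either. Leaving out the 2 arrays of high ACTB difference, 10 enzymes and 6 carriers fell.

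**Figure D3:**
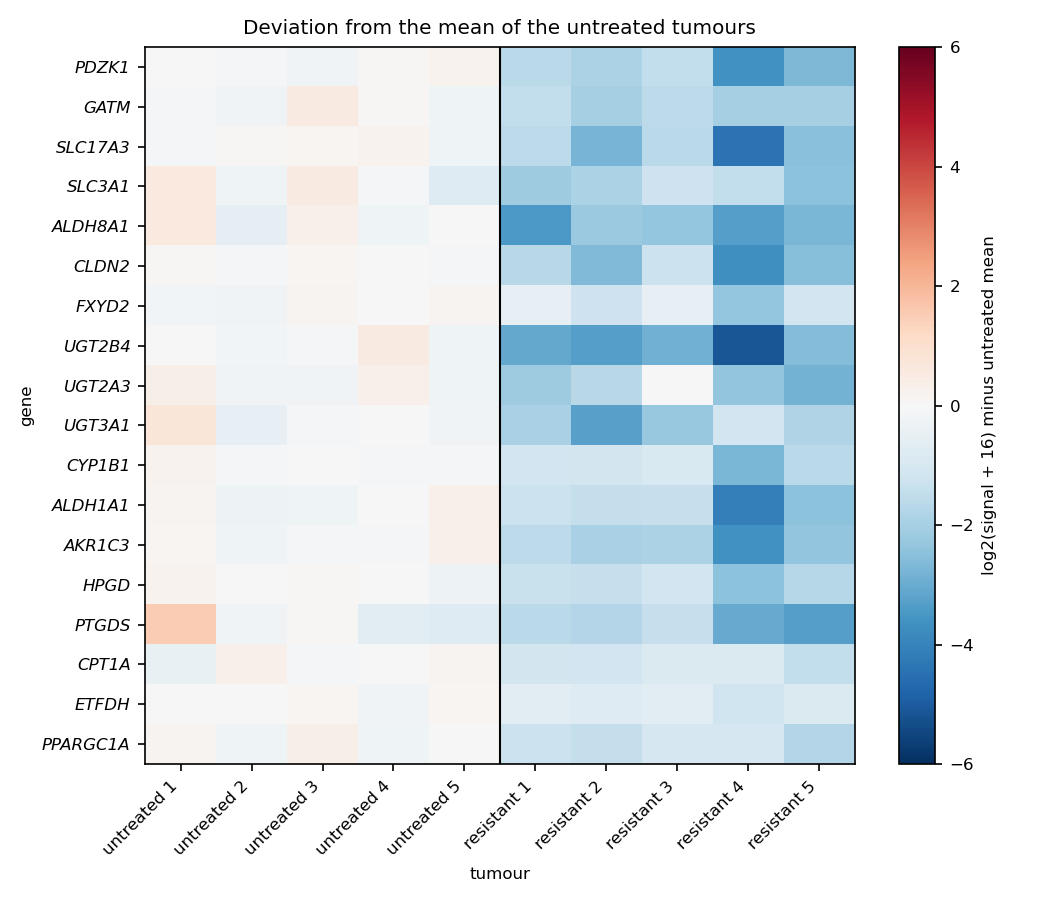
Deviation of each of the 10 tumours from the mean of the untreated tumours, on the log2(signal + 16) scale, for 18 genes of the tubule, conjugation, retinoid, prostaglandin and fatty acid oxidation lists. The colour bar gives the scale. Resistant tumour 4 is the lowest for genes such as ALDH1A1 (557) and AKR1C3 (521).

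Genes that bring lipids into and out of cells gave more rises than falls. Of 25 genes of lipoprotein uptake and lipid export 7 rose and 3 fell. LRP8, a receptor for apolipoprotein E, went from 495, 403, 478, 317 and 385 to 913, 912, 888, 1657 and 1147 (1.35 ± 0.17, adjusted p = 6.43e-06). ABCA1, which exports cholesterol, went from 3491, 2305, 1607, 2382 and 3311 to 5682, 5918, 5431, 5875 and 4186 (1.09 ± 0.27), the HDL receptor SCARB1 rose (0.89 ± 0.15) and so did the lysosomal cholesterol carriers NPC1 (0.76 ± 0.12) and NPC2 (0.50 ± 0.09). The fatty acid translocase CD36 fell from 229 ± 62.4 to 77.2 ± 36.8 (-1.48 ± 0.31) and APOE fell (-0.77 ± 0.19). Without the 2 arrays of high ACTB difference 7 rose and 3 fell. INSIG1, which holds back sterol synthesis, was at 1443, 1114, 865, 1179.5 and 1453 in untreated and 2867, 2462, 3147, 9581 and 4600.3 in resistant tumours (1.72 ± 0.29), highest in resistant tumour 4.

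In the prostaglandin pathway 6 of 18 genes fell and 1 rose. PTGES, which makes prostaglandin E2, went from 916, 957, 802, 1033 and 785.8 to 3009.7, 2988, 2355, 2290.1 and 2746 (1.56 ± 0.17, adjusted p = 7.15e-07). The enzyme that inactivates it, HPGD, fell from 3669, 3248, 3331, 3241 and 2542 to 1255, 1216, 1444, 561 and 967 (-1.60 ± 0.34), and the exporter ABCC4 fell (-0.83 ± 0.14). PTGDS, which makes prostaglandin D2, fell from 12551, 3686, 4530.2, 2735 and 2524 to 1397, 1265, 1643, 518 and 417 (-2.21 ± 0.39), with untreated tumour 1 far above the rest. AKR1C3, which reduces prostaglandins and steroids, fell from 7215, 5502, 6423, 6326 and 8234 to 2246, 1729, 1757, 521 and 1272 (-2.29 ± 0.26, adjusted p = 1.04e-06). Without the 2 arrays 6 fell and 1 rose.

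Retinoid genes gave 4 rises and 1 fall in 20. DHRS3, which reduces retinaldehyde to retinol, rose from 137, 79.0, 40.8, 71.0 and 37.1 to 308, 416, 751, 340.0 and 375 (2.39 ± 0.31), TGM2, a transglutaminase induced by retinoic acid, from 6288, 5633, 5554, 4557 and 5227 to 12383, 11252, 14015, 13765 and 8669 (1.12 ± 0.15, adjusted p = 7.50e-06), and the receptors RARA (0.59 ± 0.12) and RARG (1.09 ± 0.30) rose. ALDH1A1, which oxidises retinaldehyde to retinoic acid, fell from 10917, 7935, 8125, 9988 and 12173 to 4008, 3586, 3722, 557 and 1736 (-2.13 ± 0.33, adjusted p = 6.86e-05). The groups did not overlap for DHRS3, TGM2 and ALDH1A1 and did for RARG. Among 22 iron genes the exporter SLC40A1 fell from 394 ± 82.7 to 109.9 ± 62.8 (-1.85 ± 0.27) and so did heme oxygenase HMOX1 (-1.70 ± 0.40), while the reductase STEAP3 rose (0.85 ± 0.14), with 3 rises and 4 falls in all.

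ARG2, the mitochondrial arginase that yields ornithine, went from 315, 235, 261, 255 and 272 to 1209.8, 1406, 1639.6, 1535 and 1339.5 (2.34 ± 0.27, adjusted p = 1.47e-06), and the spermine oxidase SMOX rose (0.92 ± 0.14). ODC1, the next enzyme after arginase, fell from 6189.8 ± 375 to 4511 ± 457 (-0.46 ± 0.09, adjusted p = 0.00132). These were 2 of 3 rises and the single fall among 30 polyamine and nucleotide genes. Of 29 amino acid transport and serine synthesis genes 5 rose and 3 fell, PSAT1 of the serine pathway among the falls (-0.67 ± 0.18). Of the 22 HOX genes 0 rose and 0 fell with limma, and 3 were higher and 3 lower at an unadjusted p under 0.05. Of 33 ribosome and translation genes 3 rose and 3 fell (9.09% each), and of 21 S100 and annexin genes 1 rose (4.76%) and 3 fell (14.3%). Of 18 complement genes 3 rose (16.7%, against 5.97% of all genes) and 2 fell, and C1R was among the rises (1.40 ± 0.28). With median centring 6 complement genes rose and 1 fell. Coagulation genes gave 3 rises and 7 falls in 20, and 1 and 4 when both arrays of high ACTB difference were left out. The tissue plasminogen activator PLAT, dim in untreated tumours, rose from 57.7, 40.4, 1.75, 2.86 and 39.5 to 128, 141, 134, 132 and 158 (2.03 ± 0.39), without overlap. SERPINA3, an acute phase protease inhibitor, rose from 197 ± 50.7 to 773 ± 251 (1.87 ± 0.44). Kidney lineage factors gave 3 rises and 4 falls in 20, and with median centring 3 and 1.

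**Figure D4:**
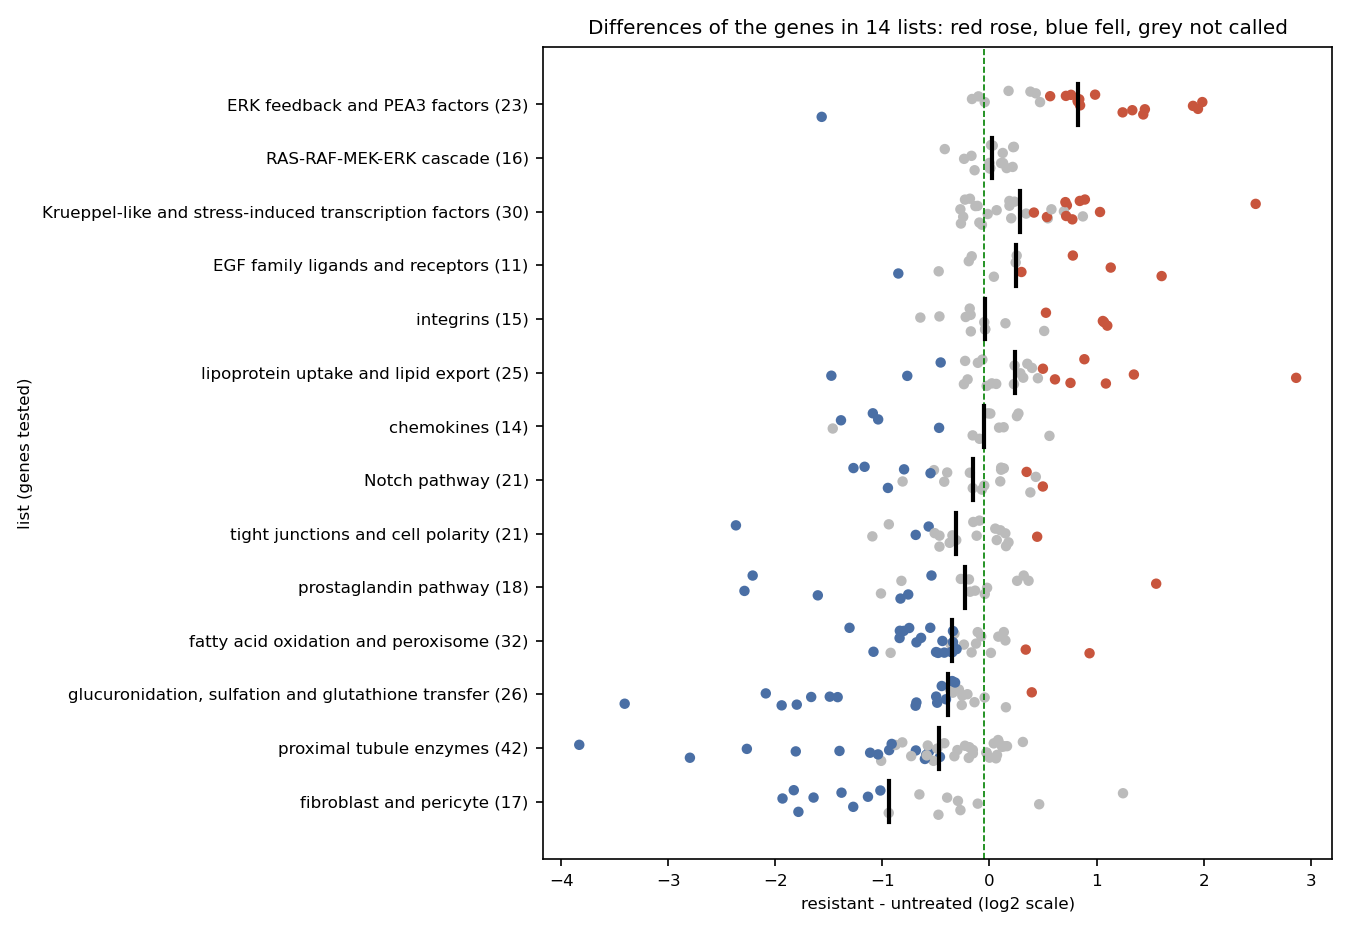
Resistant minus untreated difference on the log2 scale of each tested gene in 14 of the lists, coloured where called, with the median as a bar and the median of all genes (-0.05) as a line. The medians reach 0.82 for the ERK-induced genes and -0.94 for the fibroblast and pericyte markers.

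Host cells add RNA to these tumours, the probes are human, and mouse RNA can bind to some of them. In bulk tumours fewer cells of a type and less RNA per cell cannot be told apart. Fibroblast and pericyte markers fell in 8 of 17 genes and rose in 0 (median -0.94), with 11 lower and 0 higher at an unadjusted p under 0.05 with limma. The summed signal of all 20 markers on the array, 3 of them below the filter, was 9340 to 13050 in untreated and 4385 to 7174 in resistant tumours. These ranges did not overlap. COL3A1, a chain of fibrillar collagen, went from 6104, 5512, 3273, 4596 and 5187 to 2033, 986, 1414, 1451 and 749 (-1.93 ± 0.30). The collagen I chain COL1A1 went from 647, 1166, 653, 708 and 518 to 219, 241, 153, 291 and 201 (-1.64 ± 0.34), and its partner COL1A2 fell (-1.83 ± 0.27). The pericyte marker RGS5 went from 245, 331, 332, 743 and 488 to 159, 96.1, 133.01, 174 and 165 (-1.38 ± 0.23), and PDGFRB was below the filter. These lower signals stand beside the falls of THBS4, TNFAIP6, CCN4, VCAN and CCL2, genes that fibroblasts also express, and their part in those falls was not tested. With those 2 arrays of high ACTB difference left out, 6 markers fell.

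Of 8 endothelial markers 1 fell, TIE1 (-1.70 ± 0.40), and 0 rose, also at an unadjusted p under 0.05 with limma. The summed signal of all 20 on the array, 12 of them below the filter, was 1497 to 1792 in untreated and 1187 to 1553 in resistant tumours. The defining markers CDH5, KDR, VWF and TEK were below the filter in these tumours. Of 11 macrophage markers 2 fell, AIF1 (-2.33 ± 0.67) and MSR1 (-0.91 ± 0.24), and 0 rose (1 at an unadjusted p under 0.05 with limma). The summed signal of all 20 on the array, 9 of them below the filter, overlapped, at 1615 to 2166 and 1631 to 2389. PTPRC, CD14 and CD163 were below the filter. Muscle markers were tested in 6 of 15 genes and gave 1 rise, 1 fall and a median of -0.78. The summed signal of all 14 on the array, 8 of them below the filter, overlapped, at 2570.4 to 3694.5 in untreated and 2461 to 3351 in resistant tumours. Of 6 skin and adipocyte markers and 2 erythrocyte markers 0 passed, and 0 had an unadjusted p under 0.05 with limma.

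The tumours of each group were set against each other. The median SD over genes was 0.21 in untreated and 0.22 in resistant tumours, and it was the wider one in resistant tumours for 50.9% of genes. Arrays correlated across genes with r of 0.955 to 0.971 within the untreated group, 0.965 to 0.971 within the resistant group and 0.945 to 0.965 between them. The first principal component of the 10 arrays, with 33.4% of the variance, ran from -32.5 to -20.0 in untreated and from 20.1 to 34.5 in resistant tumours. The second, with 11.7%, did not follow treatment but the title letter. It was 12.0 to 26.4 for the 4 arrays with D or E and -15.9 to -9.58 for the 6 with B or C. When the letter was entered beside the groups 12 genes were called for it, 5 higher and 7 lower with D or E. Each letter class holds both groups, so the treatment difference could be read within each. The ACTB difference was 0.31 to 1.03 for D or E and 0.22 to 0.44 for B or C, and its part in the second component was not tested.

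**Figure D5:**
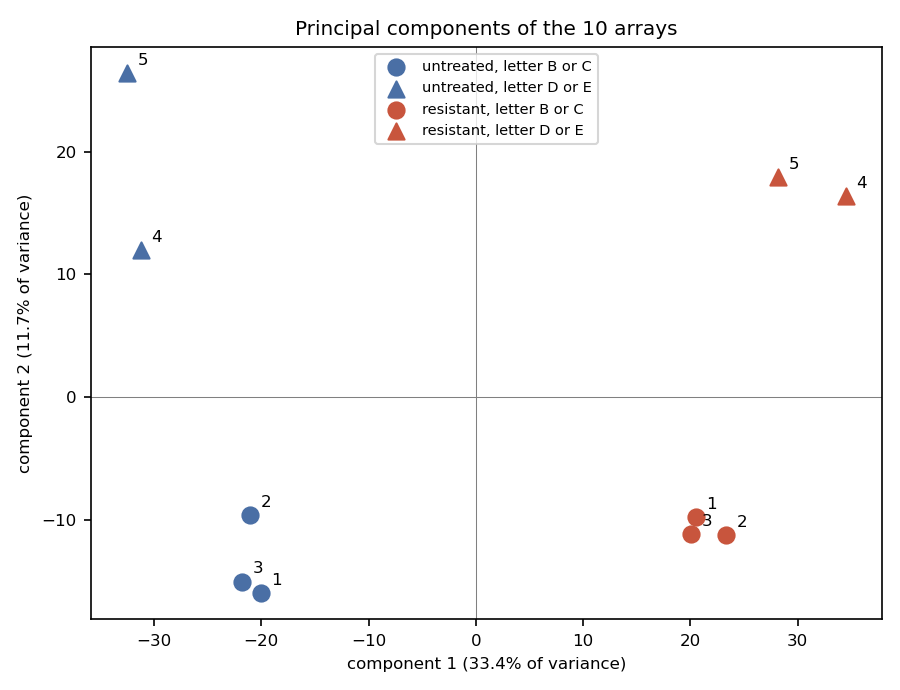
First and second principal component of the 10 arrays, each point a tumour, with colour for the group and shape for the title letter (B or C, D or E). The first axis separates resistant from untreated tumours and the second the letters, 12.0 to 26.4 against -15.9 to -9.58.

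Resistant tumour 4 lay farthest from the untreated mean. Over the genes called its mean rise was 0.86 and its mean fall -0.90, while the other resistant tumours had 0.64 to 0.71 and -0.69 to -0.84. It was the lowest tumour for ALDH1A1, AKR1C3, PDZK1, CYP1B1, FXYD2, CLDN2, HPGD, SLC17A3 and UGT2B4 and the highest for SCD, INSIG1, LRP8 and MAFF. It has a high ACTB difference and the title letter D, and the part of either was not tested. Without it 611 genes rose and 968 fell, and of the genes named here 20 lost their call, among them FXYD2 (-0.84, adjusted p = 0.104) and MYC (0.55, adjusted p = 0.0747). The genes with the largest spread among resistant tumours included SELENOP, a selenium carrier, at 49.5, 78.2, 626, 6.24 and 2.52, and CCL5, a chemokine of T cells and macrophages, at 72.0, 17.5, 136, 311 and 15.3. Neither passed the test, and ANGPTL8, at 65.9, 4.65, 117, 211 and 10.6, passed narrowly (1.53 ± 0.52, adjusted p = 0.0494) with overlap.

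The other arms show how far these changes were shared. In the sunitinib arm, 5 untreated and 4 resistant 786-O tumours given 53.6 mg/kg sunitinib, 306 genes rose (2.22%) and 392 fell (2.84%). In the A498 arm, 4 untreated and 5 sorafenib-resistant tumours of a second VHL-deficient line, 405 rose (2.93%) and 470 fell (3.4%). Of the 825 rises here 143 were also called rises with sunitinib (17.3% of 825, 46.7% of the 306) and 104 in A498 (12.6% of 825, 25.7% of the 405). Of the 1267 falls 216 were also called with sunitinib (17.05% of 1267, 55.1% of the 392) and 151 in A498 (11.9% of 1267, 32.1% of the 470). The 825 rises had a median of 0.57 here, 0.21 with sunitinib and 0.17 in A498, and the 1267 falls medians of -0.63, -0.23 and -0.11. Genes called here were chosen for large values here, so these medians are a description and were not tested.

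The difference between the changes in the 2 arms of 786-O was called for 131 genes, 61 higher (0.442%) and 70 lower (0.507%) under sorafenib. The count moved when single arrays were left out. It was 79 without resistant tumour 4, 67 without resistant tumour 5, 79 without untreated tumour 2 74 without untreated tumour 4, and 51 when both arrays of high ACTB difference were left out. The title prefix differs between the arms, 33 here and 35 in the others, so drug and whatever the prefix marks cannot be told apart. In the sunitinib arm every untreated tumour has the title letter A and every resistant one D. Letter and resistance therefore cannot be told apart in that arm, and the differences between the arms carry this limit. Among the ERK-induced genes 6 differed. The resistant minus untreated difference of DUSP6 was 1.33 ± 0.16 under sorafenib and -0.38 ± 0.17 under sunitinib (adjusted p between arms = 4.03e-04), that of PHLDA1 1.90 ± 0.20 and 0.30 ± 0.21 (adjusted p = 0.00683), and that of ETV5 1.44 ± 0.15 and 0.48 ± 0.16 (adjusted p = 0.0312). Away from this list, SLCO4A1 gave 3.05 ± 0.24 and 0.57 ± 0.25 (adjusted p = 4.03e-04) and TSPAN2 -2.57 ± 0.23 and -0.16 ± 0.25 (adjusted p = 4.03e-04). CIDEB, a lipid droplet protein, gave 1.68 ± 0.35 and -0.58 ± 0.37 (adjusted p = 0.0303), and MAP1LC3C, an autophagy protein, -1.90 ± 0.30 and 0.11 ± 0.32 (adjusted p = 0.0270). Opposite signs with a called difference were seen for GPAT3, an enzyme of triglyceride synthesis (0.90 ± 0.19 and -1.17 ± 0.20), and A4GALT, a glycolipid galactosyltransferase (1.51 ± 0.20 and -0.73 ± 0.21). They were also seen for COL1A1 (-1.64 ± 0.34 and 0.65 ± 0.36), EREG (1.13 ± 0.31 and -0.82 ± 0.33) and MAGEH1 (-0.72 ± 0.23 and 1.13 ± 0.24). Adjusted p-values of these 5 differences were 4.03e-04, 4.03e-04, 0.0255, 0.0355 and 0.00544. The fall of EREG in the sunitinib arm did not itself pass (adjusted p = 0.158 with limma). Nor did the rise of COL1A1 there, since 0 of the fibroblast and pericyte markers were called higher in that arm. The 3 lists of tubule enzymes, tubule carriers and fatty acid oxidation held 0 genes with a called difference from the sunitinib arm, which does not show that they changed alike. At an unadjusted p under 0.05 with limma 3 of 42, 4 of 29 and 10 of 32 in turn differed, beside 14.4% of all genes. With sunitinib the difference was -1.80 ± 0.25 for SLC3A1, -2.06 ± 0.32 for CLDN2, -2.13 ± 0.37 for FXYD2 and -1.18 ± 0.32 for PDZK1.

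Between the lines under sorafenib 299 differences were higher (2.17%) and 417 lower (3.02%) in 786-O. With median centring these counts were 713 and 192, so their split depends on the scaling. The A498 tumours have the title letter A or B where untreated and B or C where resistant, so the letter partly follows resistance in that line. The resistant minus untreated difference of SCD was 3.24 ± 0.34 in 786-O and 0.65 ± 0.36 in A498 (adjusted p between lines = 0.00281), that of GJB2 2.14 ± 0.30 and -0.44 ± 0.32 (adjusted p = 0.00114) and that of BDKRB2 1.71 ± 0.33 and -0.86 ± 0.35 (adjusted p = 0.00289). MMP1 had a difference of -0.28 ± 0.52 in A498 (adjusted p between lines = 0.00199), MFSD2A of -0.79 ± 0.39 (adjusted p = 3.55e-04) and PTGES of -0.55 ± 0.18 (adjusted p = 3.53e-05). UGT2B4, PTGDS, COL3A1 and THBS4 fell here and had differences in A498 of 0.55 ± 0.37, 0.50 ± 0.42, 0.78 ± 0.32 and 0.71 ± 0.41. Their adjusted p-values between lines were 8.29e-05, 0.00714, 8.38e-04 and 0.00356. The difference of ETV5 was 1.44 ± 0.15 here and 1.38 ± 0.16 in A498 (adjusted p = 0.914), and that of SLC17A3 -2.59 ± 0.43 and -2.97 ± 0.45 (adjusted p = 0.778).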

How the data were processed

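RNA of 28 xenograft tumours was measured on Affymetrix HG-U133 Plus 2.0 arrays, 10 of them in the comparison described. The values deposited by the authors are linear signal intensities per probe set. Both RMA and MAS5 appear in the submitters' processing notes, with no role given. After trimming 2% the mean of every array is 500.1, so the intensities look scaled to a common mean, and depth has no meaning for arrays, whose number limits the precision. Of 54675 probe sets 41091 name 1 gene, 1801 several and 11721 none, per GEO's platform annotation with symbols updated through RefSeq. Each gene was read by its brightest single-gene probe set, kept where its signal was above 89.4 on at least 4 arrays, and 16 was added before log2.

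One limma model (R 4.3.3, limma 3.58.1) with a mean per group was fitted over all 28 arrays, and calls of each contrast needed an adjusted p (Benjamini-Hochberg) under 0.05 over all 13808 genes tested. Scripts ran on Python 3.11.15 with pandas 2.3.3 and matplotlib 3.10.9, and the fit was tested on simulated data. The members and lists were chosen with earlier results of these data known.

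Genes were named by rule: the 25 largest rises and falls without overlap, the 12 largest with both means above the limit, up to 4 called members per list, the 6 largest differences each way from the sunitinib arm and from A498, the 8 most variable among resistant tumours, and a fixed set. Other genes named are members of the lists, chosen after their values were seen. Some list members are not reported here. Alternatives covered the pseudocount, filter, probe set rule, scaling, variance model, array weights, RNA quality, arrays in the fit and each array left out. Fits by title letter were chosen after seeing the data.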

Additional observations from a re-analysis of the deposited data

Results flagged for a closer look

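Among 5 tumours of a group, 1 value stood apart from the rest in 24 of 554 sets examined, each set being 1 gene or list in 1 group (4.33%). Chance flags about 1 in 20 groups, so this number is near that rate. Values are on the log2(signal + 16) scale, with the nearest other tumour of the group after them. Untreated tumour 1 was the highest by such a gap for CEBPB (12.69 against 12.25), CYP1B1 (11.83 against 11.57), DEFB1 (12.38 against 10.38), GJB2 (12.37 against 11.07) and KCNK1 (9.82 against 8.09). Untreated tumour 3 was the highest by such a gap for EPHA2 (9.68 against 9.37). Untreated tumour 5 was the highest by such a gap for ETFA (12.60 against 12.48). Untreated tumour 1 was the lowest by such a gap for TMEM158 (7.60 against 8.11). Untreated tumour 5 was the lowest by such a gap for EGFR (11.80 against 12.63) and TGFB1 (11.43 against 11.97). Resistant tumour 3 was the highest by such a gap for SLC25A20 (9.35 against 9.01). Resistant tumour 4 was the highest by such a gap for IRS2 (13.92 against 13.74). Resistant tumour 5 was the highest by such a gap for RUNX2 (11.65 against 11.49). Resistant tumour 1 was the lowest by such a gap for DDR2 (6.80 against 7.47) and IGF1R (8.28 against 8.61). Resistant tumour 3 was the lowest by such a gap for CCL2 (7.83 against 8.80) and ETV5 (9.71 against 10.02). Resistant tumour 4 was the lowest by such a gap for EPHA4 (7.02 against 7.90) and UGT2B4 (4.86 against 6.69). Resistant tumour 5 was the lowest by such a gap for ABCA1 (12.04 against 12.41). Of list means, the basement membrane mean of resistant tumour 4 was the highest (9.92 against 9.70), the tubule carrier mean of untreated tumour 2 was the lowest (7.88 against 7.99), the retinoid mean of resistant tumour 3 was the highest (9.13 against 8.87) and the S100 and annexin mean of resistant tumour 1 was the highest (11.22 against 11.02).

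The change under sorafenib differed from the change under sunitinib in 786-O, with limma's contrast of the arms at an adjusted p under 0.05, for genes described above. Each value is the sorafenib minus the sunitinib difference on the log2 scale. Higher under sorafenib were MFSD2A (2.70), SLCO4A1 (2.48), CIDEB (2.26), A4GALT (2.24), HMGA1 (2.17), GPAT3 (2.06), EREG (1.95), HMGA2 (1.84), G0S2 (1.82), DUSP6 (1.72), TCN1 (1.70) and MAFF (1.61). The same direction was found for PHLDA1 (1.60), SPRY2 (1.58), NT5E (1.56), TMEM158 (1.43), KCNK3 (1.39), DUSP5 (1.33), LRP8 (1.30), NRP2 (1.28), NRP1 (0.97), ETV5 (0.96), SPRED2 (0.90) and MAFG (0.69). Lower under sorafenib were TSPAN2 (-2.40), COL1A1 (-2.29), MAP1LC3C (-2.01), MAGEH1 (-1.84), TNFAIP6 (-1.70), CALCRL (-1.39), SDC2 (-1.14) and AJUBA (-1.07). Between the lines under sorafenib, among genes named for that contrast and the fixed genes, the 786-O minus A498 value was above 0 for MMP1 (3.95), MFSD2A (3.65), SCD (2.60), GJB2 (2.58), BDKRB2 (2.57), FOSL1 (1.09) and EPAS1 (0.74), and below 0 for UGT2B4 (-3.96), AIF1 (-3.34), THBS4 (-2.92), COL3A1 (-2.72), PTGDS (-2.71) and ETV4 (-1.84). The arms differ in title prefix, and in how the title letters fall on untreated and resistant tumours, as well as in drug or line. These cannot be told apart.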

How the results depend on the processing

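Of the 201 genes named and called, 100 kept call and direction under every alternative that tested them. RUNX2 was the 1 gene whose sign turned, at -0.12 with the mean of probe sets, as given above. With that mean 29 of the 188 named and called genes that could be tested lost their call. Leaving out 1 tumour ended the call of 30 genes in at least 1 case, with adjusted p-values of at most 0.171, namely ACOX2, ADAM17, AIF1, ANGPTL8, AXL, CCL28, CCN2, CLDN10, CXCL5, CYP2U1, DNMT3A, ETS1, FXYD2, IGF1, IGF1R, ITGA5, KCNK1, KRT18, LAMB3, MAGEH1, MYC, PAX2, PPARA, RARG, RBPJ, SEMA6A, TREM1, UGT2A3, VCAN and VEGFA. Without the 2 arrays of high ACTB difference 32 named genes lost their call, within the letters B and C 72 and within D and E 53, where fewer samples were fitted. The counts of calls moved as follows, with the cause not tested unless the setting itself tests fewer genes or samples.

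The 2092 genes called for resistance became 1233 (511 rose, 722 fell) without the 2 arrays of high ACTB difference, 631 (260 and 371) within letters B and C, and 1331 (546 and 785) within D and E. Requiring a difference of 1 left 448 (138 rose, 310 fell). Median centring gave 732 falls. Leaving out single tumours gave 1579 to 1931 calls, with 611 to 775 rises and 943 to 1193 falls.

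The 131 genes that differed from the sunitinib arm (61 larger and 70 smaller under sorafenib) became 51 (30 and 21) without the 2 arrays, 15 (10 and 5) within B and C, 253 (119 and 134) within D and E, 73 (37 and 36) with no filter, and 77 (37 and 40) with a difference of at least 1. The smaller ones were 36 with median centring, 40 with the mean of probe sets and 42 without _x_at and _s_at probe sets. Without each tumour in turn the count was 67 to 171, with 35 to 80 larger and 32 to 91 smaller.

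The 716 genes that differed from A498 (299 larger and 417 smaller in 786-O) became 458 without the 2 arrays, with 257 smaller, 215 (89 and 126) within B and C, 412 (150 and 262) within D and E, and 311 (101 and 210) with a difference of at least 1. They were 476 without _x_at and _s_at probe sets, with 196 larger, and 713 larger and 192 smaller with median centring. Without each tumour in turn it was 516 to 698, with 213 to 284 larger and 303 to 417 smaller.

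With the title letter as a block, 2106 genes were called. The block covered the letters of the sorafenib arm of 786-O only. No paired analysis was possible because the labels give no replicate numbers and name no pairs. The codes in the titles, a letter and a digit, alternate between untreated and resistant tumours, but no label says that neighbouring codes belong together, and the tumour numbers used here follow accession order. With 5 arrays a group, dim genes and differences well under 1 are read least surely.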
